A study of Mus musculus with 13 samples.

Results

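The messenger RNAs for subunits of the respiratory chain and the ATP synthase were followed in mouse microglia, the resident macrophages of the brain. Members were the genes whose symbols start with mt-, or match the Nduf (with a, b, c, s or v and a number), Sdha to Sdhd, Uqcr, Cox4 to Cox8 or Atp5 names, at a mean of 1 FPKM or more over all libraries. FPKM is the number of fragments of a gene divided by its length in kilobases and by the depth of the library, so it is a level per length. Of 99 genes with such names 93 passed, out of 19737 genes in the deposited table: all 13 genes encoded in mitochondrial DNA and 80 of 86 encoded in the nucleus. The members just inside the threshold were Ndufa4l2, with a mean of 1.17 FPKM, and Atp5g2, with 1.26 FPKM. Those just outside it were Ndufb2, at 0.810 FPKM, and Cox4i2, at 0.744 FPKM, and the other 4 left out were Cox6b2, Cox7a1, Cox7b2 and Cox8c. Of the 93, 89 had a mean of 1 FPKM or more in every group; Cox6a2, Ndufb1-ps, Ndufa4l2 and Atp5g2 passed without reaching it in 1 or more groups. Ndufb1-ps, a member by its symbol, is annotated in GENCODE M21 as a bidirectional promoter long noncoding RNA and not as a messenger RNA.

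The study sequenced ribosomal RNA-depleted total RNA from 13 microglia libraries, which the labels place in 4 groups. Wild type mice given EGFP in a PHP.eB adeno-associated virus, a capsid made to reach the brain from the blood, gave 3 libraries, and 5xFAD mice given the same EGFP virus gave 2. The 5xFAD mouse is a model of amyloid disease whose transgenes are driven in neurons by the Thy1 promoter. Another group, 4 libraries, came from 5xFAD mice given a PHP.eB virus for the circular RNA circPOLR2A; the bracketed numbers in their treatment labels differ between libraries, whereas the series text describes a single construct. The last, 4 libraries, came from 5xFAD mice with knockout (KO) of PKR, the kinase that double-stranded RNA activates, for which the labels name no virus. The 3 groups other than wild type therefore all carry 5xFAD. Age and the way the microglia were isolated are not given in the sources used here. PKR KO libraries alone carry library names in their labels, so any difference that goes with this naming and the knockout cannot be told apart. The labels do not say that libraries of a group came from separate animals, so p-values measure the spread between these libraries.

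The respiratory chain passes electrons from NADH and succinate through complexes I to IV to oxygen and pumps protons, and complex V, the ATP synthase, uses the proton gradient to make ATP. Every complex but complex II joins subunits read from mitochondrial DNA with subunits read from nuclear genes and imported. Mitochondrial DNA is transcribed as long precursors from both strands that are cut into the single messages, while each nuclear gene has its own promoter. Several subunits of complex IV exist as isoforms, with one form in most tissues and another best known from heart and skeletal muscle. Microglia use both oxidative phosphorylation and glycolysis, and the balance is known to shift with their activation.

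The libraries held 45.2 to 70.0 M fragments, the PKR KO libraries 57.7 to 70.0 M, and 49.6% to 61.1% of fragments lay in the listed genes. Eif2ak2, the gene for PKR, was at 3.31 to 4.61 FPKM in PKR KO, 6.49 to 8.11 FPKM in the other 5xFAD libraries and 4.14 to 5.23 FPKM in wild type, so knockout and wild type overlapped. The 9 microglia markers summed to 3071 to 5863 FPKM in every library, against 5.09 to 22.6 FPKM for 7 neuron markers and 60.8 to 216 FPKM for 5 astrocyte markers. The 5 oligodendrocyte markers summed to 163 to 1134 FPKM, highest in wild type replicate 3. That library also had the lowest microglia marker sum.

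Mitochondrially encoded messages outweighed the nuclear ones in every library. The 13 genes summed to 15190, 10262 and 20684 FPKM in wild type and to 19589 and 18740 FPKM in 5xFAD EGFP. They summed to 21441, 14232, 14189 and 20873 FPKM with circRNA and to 10710, 10124, 10809 and 16545 FPKM in PKR KO. Wild type spanned almost the whole range, and 3 of the 4 PKR KO libraries lay at its bottom beside wild type replicate 2. The 80 nuclear genes summed to 969, 865 and 995 FPKM in wild type and to 1204 and 1022 FPKM in 5xFAD EGFP. With circRNA they summed to 1196, 1155, 1414 and 1131 FPKM, and in PKR KO to 1214, 1074, 1065 and 1078 FPKM. All 10 libraries of 5xFAD mice lay above the 3 wild type libraries in the nuclear sum, but so did the FPKM total of all genes (123350 to 135810 in wild type, 139020 to 170780 in the others). As a share of that total the nuclear members overlapped between groups, with 0.701% to 0.786% in wild type, 0.735% to 0.796% in 5xFAD EGFP, 0.749% to 0.828% with circRNA and 0.702% to 0.789% in PKR KO. In a bulk sample fewer cells of a type and less RNA per cell cannot be told apart.

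The ratio of the mitochondrial to the nuclear sum ran from 8.82 to 20.8 over the 13 libraries. On the log2 scale it was 3.97 ± 0.40 (SD, n = 3) in wild type, 4.11 ± 0.12 (SD, n = 2) in 5xFAD EGFP, 3.83 ± 0.43 (SD, n = 4) with circRNA and 3.42 ± 0.36 (SD, n = 4) in PKR KO. The ranges of the groups overlapped except those of 5xFAD EGFP (4.02 to 4.20) and PKR KO (3.14 to 3.94). By complex the mean log2 ratio over all libraries was 4.10 ± 0.43 for complex V, 3.84 ± 0.44 for complex I, 3.83 ± 0.44 for complex IV and 3.4 ± 0.38 for complex III (SD, n = 13). Complex III, with mt-Cytb as its one mitochondrial message, had the lowest ratio of the 4 in 13 of 13 libraries. Within a library, complex V exceeded complex I in 13 of 13, by 0.15 to 0.36 on the log2 scale. Complex IV lay above complex I in 4, the 3 wild type libraries and circRNA replicate 3, and below it in 9. The complex IV ratio was 3.91 to 4.52 in wild type and 4.01 to 4.18 in 5xFAD EGFP, both above PKR KO (3.14 to 3.83). For complexes I, III and V the ranges of wild type and PKR KO overlapped. Complex II has no mitochondrial subunit, and its 4 genes summed to 46.5 to 64.1 FPKM.

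**Figure D1:**
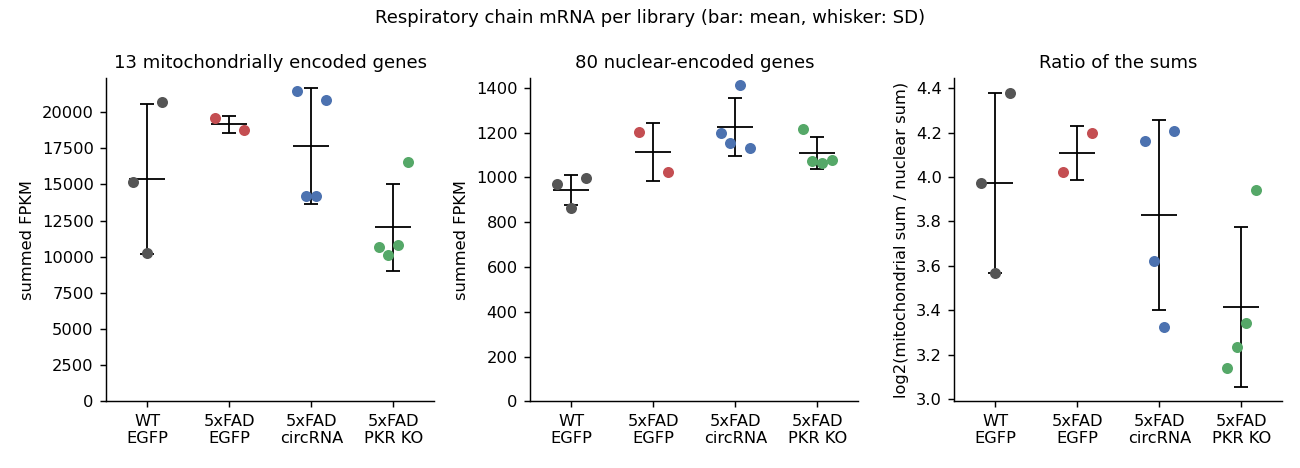
Summed FPKM of the 13 mitochondrially encoded genes (left), of the 80 nuclear-encoded genes (middle) and the log2 ratio of the sums (right) in each library, by group; points are libraries, bars are means and whiskers are SD. Mitochondrial sums ran from 10124 to 21441 FPKM with wide overlap. The wild type libraries had the 3 lowest nuclear sums and also the 3 lowest FPKM totals, and nuclear shares of the total overlapped between groups.

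Among the mitochondrial messages mt-Co1, the catalytic subunit of complex IV, was the most abundant, with a mean of 2861 FPKM over the 13 libraries. mt-Atp6, part of the proton channel of the ATP synthase, followed at 2584 FPKM and mt-Co2 at 1863 FPKM. mt-Nd3 (233 FPKM) and mt-Nd6 (147 FPKM), both core subunits of complex I, were the lowest, and mt-Nd6 is the one protein-coding gene of the 13 on the minus strand. The other 8 lay between 808 FPKM for mt-Nd4l and mt-Nd2 and 1260 FPKM for mt-Co3.

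Nuclear copies of mitochondrial DNA limit these values. Windows of 50 bases were compared with all other transcripts of GENCODE M21. All windows of mt-Co2, 99.9% of those of mt-Co3, 99.5% of mt-Atp6, 98.8% of mt-Nd4l and 98.0% of mt-Nd3 also lay in an annotated pseudogene. The shared part was 62.2% for mt-Nd4, 51.1% for mt-Co1, 8.19% for mt-Nd2 and 7.61% for mt-Nd5, and 0% for mt-Cytb, mt-Atp8, mt-Nd1 and mt-Nd6. How the authors treated reads that fit several places is not given in the sources used here, so genes with long shared parts are uncertain in level. The 7 with 50% or more shared had means of 233 to 2861 FPKM and the 4 with none 147 to 1225 FPKM. mt-Atp6 and mt-Atp8 also overlap each other by 43 bases on the same strand. Of the 80 nuclear members 29 shared no window with another gene, 50 shared under 50% and 1, Cox5b-ps, shared 61.9%, all of it with Cox5b. Exons of 23 nuclear members overlap a gene on the opposite strand.

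Every nuclear member had a lower mean than every mitochondrial one. Complex IV held the most abundant ones, led by Cox6a1, a subunit at the surface of cytochrome c oxidase, with a mean of 91.4 FPKM. The highest of complexes V, III and II were Atp5a1 (45.6 FPKM), the alpha subunit of the ATP synthase, Uqcrh (21.5 FPKM), a hinge subunit of complex III, and Sdha (21.4 FPKM), the flavoprotein of complex II. The lowest were Cox8b (1.86 FPKM) in complex IV, Atp5g2 (1.26 FPKM) in complex V, Uqcrb (7.69 FPKM) in complex III, Sdhc (7.04 FPKM) in complex II and Ndufa4l2 (1.17 FPKM) in complex I. By symbol, Ndufa4 and Ndufa4l2 were counted with complex I, although NDUFA4 is now regarded as a complex IV subunit. A total of 46 nuclear members had a mean under 10 FPKM.

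Within the isoform families, the widely expressed form was the higher one. Cox4i1 had a mean of 78.0 FPKM against 0.744 FPKM for Cox4i2, and Cox6b1 51.4 FPKM against 0.727 FPKM for Cox6b2. Cox8a had 67.7 FPKM, Cox8b 1.86 FPKM and Cox8c 0.00314 FPKM. Cox7a2 had 15.2 FPKM, its relative Cox7a2l, a supercomplex assembly factor, 44.8 FPKM, and the muscle form Cox7a1 0.642 FPKM. Ndufa4 had 9.42 FPKM against 1.17 FPKM for Ndufa4l2. Among the 3 genes for the identical mature c-ring subunit, Atp5g3 led with 6.46 FPKM before Atp5g1 (1.69 FPKM) and Atp5g2 (1.26 FPKM). The exception in size was the Cox6a pair, where Cox6a2, the form best known from heart and skeletal muscle, reached a mean of 15.6 FPKM beside 91.4 FPKM for Cox6a1.

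5xFAD EGFP was compared with wild type EGFP to describe what the disease model changes in these genes. No mitochondrial message passed the test and 9 of the 80 nuclear genes did, 8 higher and 1 lower in 5xFAD. Cox6a2, Ndufa1, Cox7a2l and Uqcrh rose most and Ndufa4l2 fell. Each gene was tested with limma on log2(FPKM + 1) over 10817 genes with the threshold at an adjusted p of 0.05, and changes on this scale understate those of genes near 1 FPKM. Of all genes tested, 7.65% were called higher and 6.35% lower, beside 10.0% and 1.25% of the nuclear members. Among the 8 higher are Cox6a2 of complex IV and Ndufb1-ps of complex I, which entered the test through the 5xFAD groups. The 1 lower, Ndufa4l2, entered through wild type, so these shares are not read as an excess or a lack. By complex 2 of 37 genes of complex I, 2 of 8 of complex III, 3 of 14 of complex IV, 1 of 17 of complex V and 0 of 4 of complex II rose, and the 1 that fell was in complex I. The median log2 change was 0.13 over the nuclear and 0.37 over the mitochondrial members, against -0.03 over all genes. The nuclear median ran from 0.01 without 5xFAD EGFP replicate 1 to 0.23 without 5xFAD EGFP replicate 2, and was -0.0275 after rescaling to the same sum. The mitochondrial median ran from 0.11 without wild type replicate 2 to 0.61 without wild type replicate 3, and was -0.0454 after quantile normalization. The smallest adjusted p of a mitochondrial message was 0.251 and 0 of 13 had an unadjusted p under 0.05, while all 13 values were above 0, from 0.26 to 0.60. Of the mitochondrial messages 4 of 13 had 5xFAD ranges above wild type, as did 24 of 80 nuclear members and 16.5% of all genes; 2 nuclear members and 21.1% of all genes had ranges below. Rescaling every library to the same FPKM sum turned the nuclear calls to 5 higher and 7 lower, and 3, 4 and 5 were left without 5xFAD EGFP replicate 1, 5xFAD EGFP replicate 2 or wild type replicate 2.

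Cox6a2 lies on chromosome 7 (128205435 to 128206387, minus strand, GRCm38). It was at 0.56, 0.65 and 0.35 FPKM in wild type and at 17.3 and 15.3 FPKM in 5xFAD EGFP. With circRNA it was at 13.9, 23.3, 31.7 and 14.4 FPKM, and in PKR KO at 18.6, 22.4, 16.3 and 28.2 FPKM. All 10 libraries of 5xFAD mice lay far above all 3 of wild type, and the 5xFAD groups overlapped each other. The mean FPKM in 5xFAD EGFP was 31.4-fold that of wild type. On the log2(FPKM + 1) scale, where the added 1 shrinks the change, the difference was 3.51 (SE 0.30; limma adjusted p = 1.11e-05), and it passed in 17 of 17 alternatives. The wild type values rest on few fragments, 12 in the lowest library. With a wild type mean of 0.519 FPKM, Cox6a2 entered the test through the 5xFAD groups, so a difference from wild type was a condition of its entry and its p-values against wild type are a description. The same holds for Ndufb1-ps, with a wild type mean of 0.977 FPKM. The counts of higher genes against wild type hold Cox6a2, and that of 5xFAD EGFP also holds Ndufb1-ps. Cox6a1, the partner of Cox6a2, was at 61.7, 53.5 and 89.4 FPKM in wild type and 96.2 and 84.8 FPKM in 5xFAD EGFP, with overlapping ranges (log2 change 0.43, SE 0.21, limma adjusted p = 0.212).

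The Cox6a2 gene lies within the span of Itgad, an integrin gene on the opposite strand, and 70 exon bases of the pair overlap. How counting treated strand is not given in the sources used here, so reads of the pair in those bases cannot be told apart. Itgad itself was at 0.061 ± 0.011 FPKM (SD, n = 3) in wild type and 0.956 ± 0.096 FPKM (SD, n = 2) in 5xFAD EGFP, far below Cox6a2. Itgax, the CD11c integrin gene of activated microglia, ends 54778 bases away. It was at 2.35 ± 0.49 FPKM in wild type and 81.3 ± 0.86 FPKM in 5xFAD EGFP (log2 change 4.63, limma adjusted p = 5.12e-09). Of the other neighbours within 100000 bases, Itgam, an integrin gene that microglia express at rest, was at 58.6 ± 12.7 and 60.0 ± 0.30 FPKM (log2 change 0.06, limma adjusted p = 0.882). Armc5, on the other side, had a log2 change of 0.16 (limma adjusted p = 0.529), and Gm49368, 9130023H24Rik and BC017158 had changes of 0.08, -0.12 and 0.15 (limma adjusted p = 0.818, 0.636 and 0.320). Tgfb1i1, on the same side as Armc5 and too low to enter the test, went the other way, from 1.46 ± 0.46 FPKM in wild type to 0.614 ± 0.19 FPKM in 5xFAD EGFP.

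Ndufa1, an accessory subunit needed to assemble complex I, lies on chromosome X (37187588 to 37191163, minus strand). It was at 7.48, 6.11 and 3.22 FPKM in wild type and 12.3 and 18.6 FPKM in 5xFAD EGFP. With circRNA it was at 19.5, 16.2, 12.8 and 12.0 FPKM, and in PKR KO at 15.3, 15.4, 15.6 and 13.9 FPKM. No library of a 5xFAD mouse reached down to the wild type range. The mean FPKM in 5xFAD EGFP was 2.76-fold that of wild type. On the log2(FPKM + 1) scale the change was 1.35 (SE 0.27, limma adjusted p = 0.0056).

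Cox7a2l, which helps complexes III and IV join into supercomplexes (chromosome 17, 83501918 to 83517330, minus strand), was at 28.0, 25.1 and 29.0 FPKM in wild type and 50.9 and 41.6 FPKM in 5xFAD EGFP. With circRNA it was at 49.5, 54.1, 58.6 and 43.4 FPKM, and in PKR KO at 52.7, 50.1, 46.7 and 53.0 FPKM. The 3 wild type libraries were close to each other and below all others. The mean FPKM in 5xFAD EGFP was 1.69-fold that of wild type, and the change on the log2(FPKM + 1) scale was 0.73 (SE 0.13, limma adjusted p = 0.00377).

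Uqcrh, on chromosome 4 (116066965 to 116075071, minus strand), was at 14.4, 13.0 and 14.0 FPKM in wild type and 24.4 and 18.9 FPKM in 5xFAD EGFP. With circRNA it was at 21.2, 25.0, 27.5 and 21.7 FPKM, and in PKR KO at 28.3, 25.4, 22.2 and 23.2 FPKM. Wild type again lay apart below the other groups, by 0.61 on the log2 scale in 5xFAD EGFP (SE 0.14, limma adjusted p = 0.0129). Ndufa1, Cox7a2l and Uqcrh passed in 15 of 17 alternatives each. The other 4 that rose were Ndufb1-ps of complex I (0.51), Cox5b (0.41), a subunit on the matrix side of complex IV, Atp5j2 of the ATP synthase (0.37) and Uqcrq of complex III (0.36), with limma adjusted p-values of 0.0249 to 0.0340. They passed in 9 or 10 of 17 alternatives, and Ndufb1-ps, Cox5b and Uqcrq were chosen for naming after their values were seen. Ndufb1-ps is annotated as a noncoding RNA and counted with complex I by symbol only. Its exons overlap those of Cpsf2 on the opposite strand by 147 bases, where reads of the pair cannot be told apart.

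Ndufa4l2, a relative of Ndufa4 known to be induced in low oxygen (chromosome 10, 127514967 to 127517154, plus strand), went the other way. It was at 2.40, 1.76 and 2.95 FPKM in wild type and 0.51 and 0.38 FPKM in 5xFAD EGFP. It was at 0.70, 0.79, 1.41 and 1.04 FPKM with circRNA, and at 1.09, 0.65, 0.97 and 0.60 FPKM in PKR KO. Every wild type library lay above every other library, and the log2 difference in 5xFAD EGFP was -1.21 (SE 0.18, limma adjusted p = 0.000919). Ndufa4l2 reached the mean of 1 FPKM needed to enter the test only through wild type, with group means of 2.37 FPKM there and 0.447, 0.989 and 0.828 FPKM in 5xFAD EGFP, circRNA and PKR KO. A gene that enters in that way had to be higher in wild type, so its p-values against wild type, here and in the comparisons of circRNA and PKR KO with wild type, are a description, and the counts of lower genes there hold it. Ndufa4 itself was at 7.62 to 12.0 FPKM in wild type and at 9.32 and 9.92 FPKM in 5xFAD EGFP. Ndufa4l2 and Cox4i2 are also expressed by mural cells of vessels. The 4 mural cell markers summed to 34.3 to 79.5 FPKM in wild type, 13.4 to 19.6 FPKM in 5xFAD EGFP, 18.6 to 35.1 FPKM with circRNA and 17.4 to 30.9 FPKM in PKR KO, with circRNA overlapping wild type. The 5 endothelial markers summed to 42.2 to 100.4 FPKM in wild type, 20.3 to 28.2 FPKM in 5xFAD EGFP, 26.5 to 56.5 FPKM with circRNA and 28.7 to 40.1 FPKM in PKR KO. The 4 border macrophage markers summed to 28.8 to 46.0 FPKM in wild type, 14.6 to 19.5 FPKM in 5xFAD EGFP, 11.0 to 19.5 FPKM with circRNA and 10.5 to 14.7 FPKM in PKR KO, so all 10 5xFAD libraries lay below wild type. The part of these cell types in the Ndufa4l2 result, or in any other change against wild type, was not tested. Cox4i2, below the threshold, was at 1.40, 0.77 and 1.53 FPKM in wild type and 0.33 and 0.39 FPKM in 5xFAD EGFP.

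The muscle isoform Cox8b varied within wild type more than between groups. It was at 5.82, 3.79 and 0.94 FPKM in wild type and 1.51 and 1.09 FPKM in 5xFAD EGFP, so that wild type replicate 3 lay below both (log2 change -0.80, SE 0.45, limma adjusted p = 0.293). Cox8a was at 49.98 to 88.1 FPKM in wild type and 68.0 and 84.8 FPKM in 5xFAD EGFP. In complex II, none of the 4 genes passed, with log2 changes from -0.05 to 0.09.

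**Figure D2:**
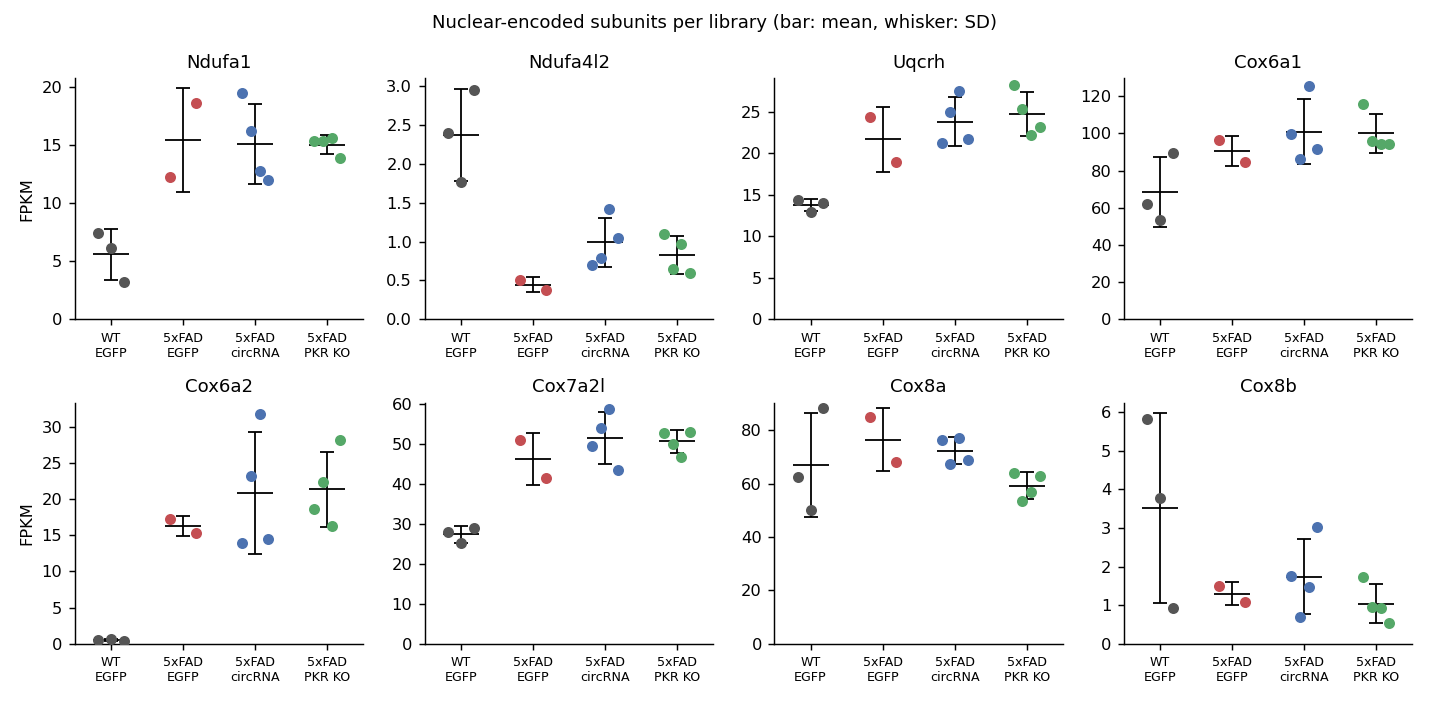
FPKM of 8 nuclear-encoded subunits in each library, by group; points are libraries, bars are means and whiskers are SD, and each axis starts at 0. Ndufa1, Uqcrh, Cox6a2 and Cox7a2l are lowest and Ndufa4l2 highest in the 3 wild type libraries, whereas the groups overlap for Cox6a1, Cox8a and Cox8b.

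The promoters of 5 genes are shown to let the letters of genes that rose in 5xFAD be read beside those of abundant complex IV genes. RefSeq windows from 250 bases before to 50 after the start (GRCm38.p6) were at hand for 64 of the 80 nuclear members, Cox6a2 not among them. Below are the 120 bases before the RefSeq start of 3 genes that rose in 5xFAD and of 2 abundant complex IV genes that did not pass in 5xFAD EGFP, read 5′ to 3′ on the gene's strand, all the minus strand. Capitals mark a match, on either strand, to the core of the site of NRF1, a regulator of respiratory genes (GCGCA and GCGC with any base between), or to CCGGAAG, the core of sites of the ETS family, to which NRF2 (GABP) belongs. The stretches lie at chrX:37191239-37191358, chr17:83514334-83514453, chr4:116075071-116075190, chr5:115348959-115349078 and chr7:30626115-30626234.
Ndufa1: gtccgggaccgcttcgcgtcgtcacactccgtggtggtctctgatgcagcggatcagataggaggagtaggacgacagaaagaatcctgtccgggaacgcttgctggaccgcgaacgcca
Cox7a2l: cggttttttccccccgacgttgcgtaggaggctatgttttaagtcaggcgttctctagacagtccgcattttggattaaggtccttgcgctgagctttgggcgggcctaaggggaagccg
Uqcrh: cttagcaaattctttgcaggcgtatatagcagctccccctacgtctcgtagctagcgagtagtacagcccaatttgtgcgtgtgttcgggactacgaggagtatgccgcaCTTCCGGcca
Cox6a1: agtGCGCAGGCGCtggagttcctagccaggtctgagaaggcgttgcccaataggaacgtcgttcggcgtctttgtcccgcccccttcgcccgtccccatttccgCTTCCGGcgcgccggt
Cox6b1: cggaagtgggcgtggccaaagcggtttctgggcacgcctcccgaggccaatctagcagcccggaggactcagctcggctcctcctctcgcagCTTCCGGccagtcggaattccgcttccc

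Cox6a1 held both motifs, Uqcrh and Cox6b1 the ETS core alone, and the stretches of Ndufa1 and Cox7a2l neither. Over the whole windows the NRF1 core lay in 26.1% of 69 windows of nuclear members, 10.3% of 11019 windows of genes at a mean of 1 FPKM or more and 4.60% of all 32851 windows. The ETS core lay in 24.6%, 17.7% and 8.86% of the same windows. TATAAA, the TATA box core, lay in 11.6%, 7.06% and 13.6%, and CACGTG, the E-box of factors such as USF and MYC, in 10.1%, 10.1% and 7.15%. Of the 8 genes higher in 5xFAD EGFP, 5 had a window, of which 0 held the NRF1 core and 1 the ETS core. Among genes with a window that were higher than wild type with circRNA, 8 of 27 held the NRF1 core and 7 the ETS core. In PKR KO against wild type these were 5 and 4 of 14. A match describes letters, and its absence says that these letters are not in the window.

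The circRNA virus was compared with the EGFP virus in 5xFAD mice to describe what the circular RNA adds in these genes. None of the 93 members passed in limma, as 0.0% of all genes did, and the smallest adjusted p among members was 0.739. At an unadjusted p under 0.05 there were 5 of 80 nuclear members, all higher, and 0 of 13 mitochondrial ones, against 4.54% of all genes higher and 0.296% lower. The median log2 change was 0.14 over nuclear members (73 of 80 above 0) and -0.16 over mitochondrial members (13 of 13 below 0), beside 0.08 over all genes. The nuclear median was 0.03 without 5xFAD EGFP replicate 2 and 0.25 without 5xFAD EGFP replicate 1. The mitochondrial median ran from -0.25 without circRNA replicate 1 or 4 to -0.06 without circRNA replicate 2, and was -0.07 without circRNA replicate 3. The circRNA range lay above that of EGFP for 12 of 80 nuclear members and for 16.6% of all genes, and below it for 0 members and 2.65% of all genes.

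The nuclear members with the smallest p among positive changes were Ndufa4l2 and Ndufb7, and among the 7 negative changes Ndufb3 and Cox5b. Ndufb7, an accessory subunit of complex I, was at 4.11 and 3.15 FPKM with EGFP and at 4.70, 4.15, 5.45 and 4.16 FPKM with circRNA, all above EGFP (log2 change 0.28, SE 0.11, limma adjusted p = 0.739). Ndufa4l2 also lay above both EGFP libraries in all 4 (log2 change 0.45, SE 0.17, limma adjusted p = 0.739), still below wild type. Ndufb3 (log2 change -0.25, SE 0.15) and Cox5b (-0.08, SE 0.10) overlapped between the groups, with limma adjusted p-values of 0.739 and 0.802. Cox6a2 differed by 0.26 (SE 0.29, limma adjusted p = 0.780).

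PKR KO was compared with 5xFAD EGFP to describe what differs in libraries labelled as knockout. The limit on library naming and the overlap of Eif2ak2 between PKR KO and wild type are given above. The 5xFAD EGFP mice received a virus and the labels name none for PKR KO, so the knockout and a difference in virus cannot be told apart, here or against wild type and circRNA. Mitochondrial messages were lower in PKR KO in these libraries, without passing the test. In limma 0 of 13 mitochondrial and 0 of 80 nuclear members passed, where 0.0832% of all genes were called, all of them higher. All 13 mitochondrial log2 changes were below 0, from -1.26 to -0.38 with a median of -0.66, against a median of -0.04 over the nuclear members and 0.01 over all genes. The nuclear median was 0.06 without 5xFAD EGFP replicate 1 and -0.14 without 5xFAD EGFP replicate 2. Of the nuclear members 7 had ranges above and 12 below 5xFAD EGFP, beside 17.7% and 17.0% of all genes. Of the 13, 6 had an unadjusted p under 0.05, against 5.57% of all genes lower and 7.41% higher at that threshold, and 11 had a PKR KO range wholly below that of 5xFAD EGFP, against 17.0% of all genes. By complex the median was -0.66 for the 7 genes of complex I, -0.52 for mt-Cytb of complex III, -0.76 for the 3 of complex IV and -0.85 for the 2 of complex V.

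mt-Nd3, a small core subunit of complex I (chromosome M, 9459 to 9806, plus strand), differed most. It was at 345 and 337 FPKM in 5xFAD EGFP and at 134, 125, 139 and 173 FPKM in PKR KO. It was at 253, 163 and 298 FPKM in wild type and at 377, 200, 203 and 283 FPKM with circRNA. PKR KO lay below 5xFAD EGFP and below circRNA in every library and overlapped wild type through wild type replicate 2. The difference from 5xFAD EGFP was -1.26 (SE 0.28, limma adjusted p = 0.116). mt-Atp8, a subunit of the ATP synthase, differed by -1.05 (SE 0.30, limma adjusted p = 0.210) and mt-Nd1 by -0.84 (SE 0.30, limma adjusted p = 0.257). mt-Nd5 differed least, by -0.38 (SE 0.28, limma adjusted p = 0.566). With the 2 groups fitted alone 4 mitochondrial messages passed, and with arrayWeights, which weights libraries by their fit, 6 did, all lower in PKR KO. Of the nuclear members 1 and 3 passed in these fits, all lower.

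The mitochondrial sums moved with oligodendrocyte, microglia and neuron markers, and the part of these markers in the results was not tested. A covariate fit for oligodendrocyte markers is given as a description. The 5 libraries with the highest sums of the 5 oligodendrocyte markers (486 to 1134 FPKM) were also the 5 with the highest mitochondrial sums (18740 to 21441 FPKM). The other 8 had marker sums of 163 to 288 FPKM and mitochondrial sums of 10124 to 16545 FPKM. The same 5 libraries had the 5 lowest sums of the 9 microglia markers, 3071 to 4580 FPKM against 4590 to 5863 FPKM in the other 8. Their 7 neuron markers summed to 11.5 to 22.6 FPKM, against 5.09 to 12.1 FPKM. Between the groups compared here, microglia markers summed to 4138 to 4453 FPKM in 5xFAD EGFP and 4590 to 4826 FPKM in PKR KO, and neuron markers to 15.9 to 18.7 FPKM and 7.075 to 12.1 FPKM, with no overlap for either list. The oligodendrocyte marker sum was 486 and 524 FPKM in 5xFAD EGFP and 163 to 263 FPKM in PKR KO, with all 5 markers present in every group. These groups do not overlap in it, so a fit with it as a covariate cannot tell marker level and group apart. With the log2 marker sum as a covariate, an alternative added after the data were seen, the median mitochondrial change in PKR KO against 5xFAD EGFP was -0.13 in place of -0.66, and 0 of 13 passed. For circRNA against 5xFAD EGFP it was 0.06 in place of -0.16. The nuclear medians of these comparisons were -0.11 and 0.13 with the covariate.

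**Figure D3:**
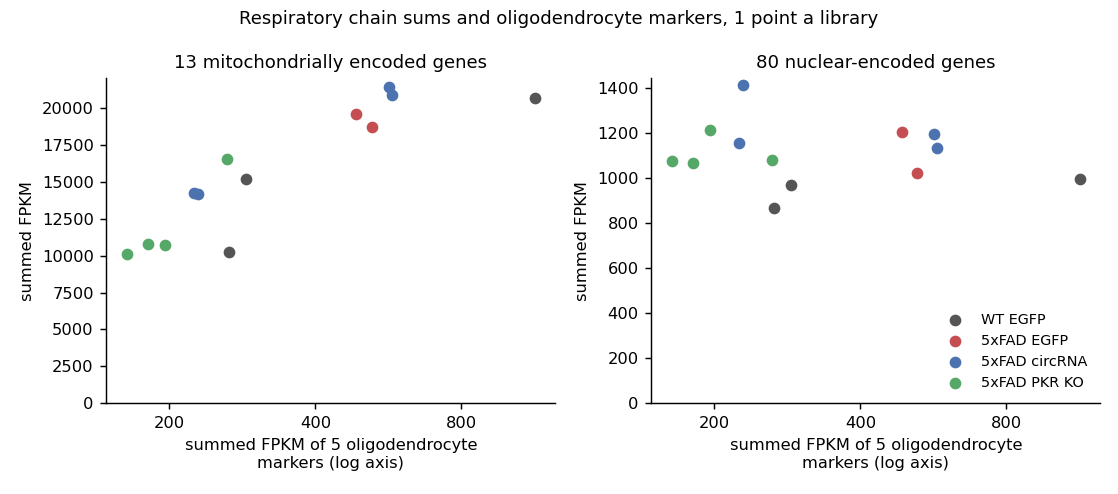
Summed FPKM of the 13 mitochondrially encoded genes (left) and the 80 nuclear-encoded genes (right) against the summed FPKM of 5 oligodendrocyte markers (log axis); each point is a library, coloured by group. Libraries with 486 FPKM or more of the markers had mitochondrial sums of 18740 FPKM or more, and the nuclear sums show no such order.

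The share of a single message in the mitochondrial pool set 1 group apart from all other libraries for 4 of the 13 genes, a pattern chosen after the values were seen. Since each share is taken within a library, scaling of the library does not enter it. The shares of a library add up to the whole, so the genes are not separate results, and no background stands beside this count. mt-Nd3 also shares 98.0% of its windows with a pseudogene. mt-Nd3 made up 1.05% to 1.28% of the summed mitochondrial FPKM in PKR KO and 1.36% to 1.80% in the other 9 libraries. 5xFAD EGFP, at 1.760% to 1.797%, lay just above the rest, whose highest was 1.758%. mt-Atp8 made up 5.15% to 5.66% in PKR KO against 5.90% to 7.48%. mt-Cytb, the mitochondrial subunit of complex III, made up 8.41% to 8.68% against 6.599% to 8.10%. mt-Atp6 set wild type apart, with 15.1% to 16.1% against 16.3% to 18.3% in the other groups. For the 10 messages other than mt-Nd3, mt-Atp8 and mt-Cytb, PKR KO overlapped the rest, mt-Co1 with 16.5% to 17.4% against 16.6% to 21.4%. Between single groups other messages were apart too: mt-Co1 was at 16.5% to 17.4% in PKR KO, 17.7% to 17.8% in 5xFAD EGFP and 18.1% to 20.02% with circRNA. mt-Nd5 made up 5.75% to 6.50% in PKR KO against 4.86% to 5.05% in 5xFAD EGFP, and mt-Nd2 4.62% to 5.08% against 5.27% to 5.38%. mt-Nd3, mt-Atp8 and mt-Nd4l are the 3 shortest of the genes, with 348, 204 and 297 bases. mt-Nd4l made up 5.21% to 5.80% in PKR KO and 3.55% to 5.80% elsewhere, and the part of length in these shares was not tested.

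**Figure D4:**
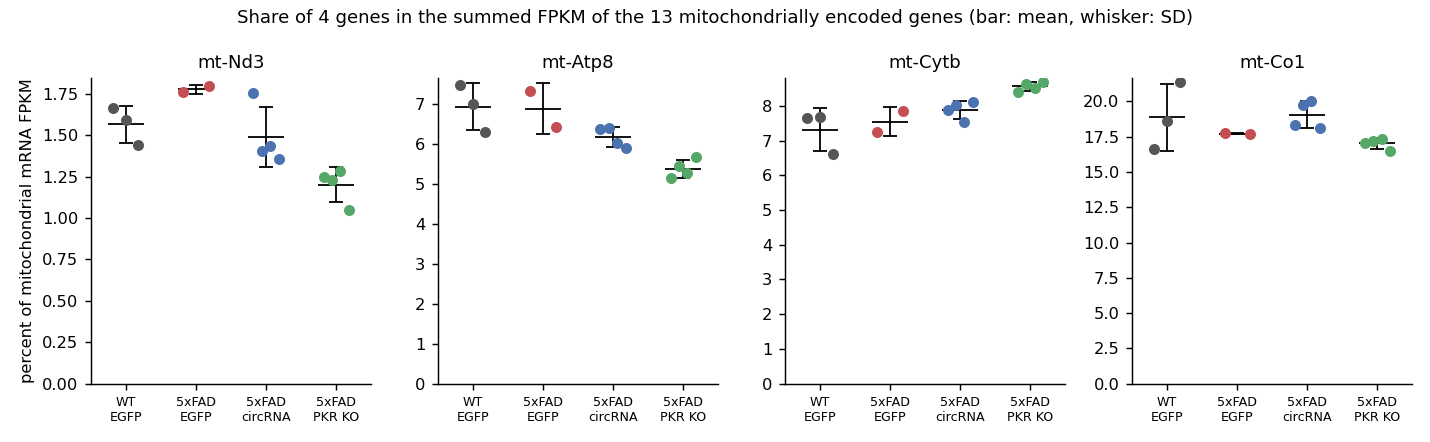
Share of mt-Nd3, mt-Atp8, mt-Cytb and mt-Co1 in the summed FPKM of the 13 mitochondrially encoded genes, in percent, in each library by group; points are libraries, bars are means and whiskers are SD. PKR KO lies below all other libraries for mt-Nd3 and mt-Atp8, above them for mt-Cytb, and overlaps them for mt-Co1.

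Among the nuclear members with the smallest p in this comparison were Ndufa13 above and Cox5b and Cox5b-ps below 5xFAD EGFP. Ndufa13, an accessory subunit of complex I also known as GRIM-19, was at 17.2 and 13.7 FPKM with EGFP and at 22.3, 18.7, 19.5 and 19.3 FPKM in PKR KO (log2 change 0.35, SE 0.14, limma adjusted p = 0.330). Cox5b was at 9.56 and 9.31 FPKM with EGFP and 7.24, 7.09, 7.60 and 7.60 FPKM in PKR KO (log2 change -0.32, SE 0.10, limma adjusted p = 0.236). Its copy Cox5b-ps, most of whose letters it shares, differed by -0.41 (SE 0.12, limma adjusted p = 0.216), so these values are not separate evidence.

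Each treated 5xFAD group was also compared with wild type, and these comparisons share the wild type libraries with the first. With circRNA 35 nuclear members rose and 1 fell of 80, and no mitochondrial message passed. This was 43.8% of the nuclear members higher, beside 17.8% of all genes higher and 8.05% lower. The ranges lay above wild type for 39 nuclear members and below for 1, beside 20.2% and 8.0% of all genes. By complex 14 of 37 genes of complex I, 1 of 4 of complex II, 4 of 8 of complex III, 9 of 14 of complex IV and 7 of 17 of complex V rose. The median log2 change was 0.26 over nuclear and 0.25 over mitochondrial members, against 0.02 over all genes. The mitochondrial median was -0.02 without wild type replicate 2, 0.44 without wild type replicate 3 and -0.23 after quantile normalization, and the nuclear one -0.0035 after rescaling to the same sum. The largest was again Cox6a2 (log2 change 3.77, SE 0.25, limma adjusted p = 6.09e-07), then Ndufa1 (1.32, SE 0.22, limma adjusted p = 0.000953), Cox7a2l (0.88, SE 0.11, limma adjusted p = 0.000124) and Uqcrh (0.74, SE 0.12, limma adjusted p = 0.000608).

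In the complexes not yet named, Sdhb, the iron-sulphur subunit of complex II, was at 10.8, 10.7 and 10.2 FPKM in wild type and 12.7, 12.4, 16.7 and 11.9 FPKM with circRNA. All 4 lay above wild type, by 0.31 on the log2 scale (SE 0.10, limma adjusted p = 0.0440). Atp5k, the e subunit of the ATP synthase, rose by 0.55 (SE 0.17, limma adjusted p = 0.0362). Abundant complex IV genes rose too: Cox6a1 by 0.58, Cox4i1 by 0.50 and Cox6b1 by 0.46 (limma adjusted p = 0.0286, 0.0422 and 0.0423). Each of these 5 passed in 5 to 9 of 19 alternatives, whereas Cox6a2, Ndufa1, Cox7a2l and Uqcrh passed in 19 of 19. Ndufa4l2 fell by 0.76 (SE 0.15, limma adjusted p = 0.00269). The count and its direction depended on scaling: rescaling every library to the same FPKM sum gave 10 higher and 12 lower, and without wild type replicate 2 the count was 20.

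PKR KO against wild type raised 15 nuclear members and lowered 4, and lowered 1 mitochondrial message. These were 18.8% and 5.00% of the nuclear members, beside 17.5% and 19.4% of all genes. The ranges lay above wild type for 20 nuclear members and below for 3, beside 19.8% and 21.1% of all genes. The 15 comprised 8 of 37 genes of complex I, 1 of 4 of complex II, 1 of 8 of complex III, 3 of 14 of complex IV and 2 of 17 of complex V. Cox6a2 (log2 change 3.86, SE 0.25, limma adjusted p = 4.13e-07), Ndufa1 (1.34, SE 0.22, limma adjusted p = 0.000688), Cox7a2l (0.86, SE 0.11, limma adjusted p = 0.000111) and Uqcrh (0.80, SE 0.12, limma adjusted p = 0.000274) were again highest, and each passed in 19 of 19 alternatives. Atp5j2, the f subunit of the ATP synthase, rose by 0.52 (SE 0.08, limma adjusted p = 0.000476). It was at 5.60, 4.49 and 4.22 FPKM in wild type and at 7.19, 7.36, 7.19 and 7.23 FPKM in PKR KO, with no overlap. Cox6a1 rose by 0.57 (limma adjusted p = 0.0224) and Sdhb by 0.30 (limma adjusted p = 0.0403).

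The 4 that fell were Ndufa4l2, by 0.88 (SE 0.15, limma adjusted p = 0.000787), Atp5g1, by 0.40 (SE 0.12, limma adjusted p = 0.0223), Ndufb4, by 0.37 (SE 0.09, limma adjusted p = 0.00836), and Atp5g2, by 0.34 (SE 0.11, limma adjusted p = 0.0345). Atp5g2, with means of 1.51 FPKM in wild type and 0.980 FPKM in PKR KO, entered the test through the groups where it was higher, so its p against wild type is a description too. Atp5g1 and Atp5g2, genes for the c-ring of the ATP synthase, overlapped between the groups: Atp5g1 was at 2.55, 2.14 and 1.60 FPKM in wild type and 1.41, 1.17, 1.65 and 1.15 FPKM in PKR KO. mt-Nd3 fell by 0.70 (SE 0.24, limma adjusted p = 0.0388). That call was lost without wild type replicate 1 or 3 or without PKR KO replicate 1, 2 or 3, and its adjusted p ran from 0.00180 to 0.282 over 19 alternatives. The median mitochondrial change was -0.25, -0.50 without wild type replicate 2, -0.42 without PKR KO replicate 4 and -0.04 without wild type replicate 3, and turned to 0.26 with the oligodendrocyte marker covariate. The oligodendrocyte marker sums were 266 to 1134 FPKM in wild type and 163 to 263 FPKM in PKR KO, without overlap. That fit therefore cannot tell marker level and group apart. Scaling decided the balance of the nuclear genes, with 8 higher and 30 lower after rescaling to the same sum and 29 higher and 3 lower under median-ratio scaling.

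circRNA and PKR KO were compared directly, on libraries that also enter the comparisons above. Of the nuclear members 7 of 80 were higher with circRNA and 0 lower, 8.75% beside 4.28% of all genes higher and 1.91% lower. The circRNA range lay above that of PKR KO for 22 nuclear members and below for 0, beside 15.1% and 4.44% of all genes. The 7 that passed were Cox5b-ps, Cox7b and Cox5a of complex IV, Ndufb6 and Ndufb10 of complex I, Uqcrq of complex III and Atp5j of complex V. Uqcrq was at 11.6, 11.9, 12.9 and 10.2 FPKM with circRNA, whereas PKR KO had 8.70, 8.01, 8.48 and 8.41 FPKM, with no overlap (log2 change 0.43, SE 0.08, limma adjusted p = 0.0123), and passed in 20 of 20 alternatives. Cox5b-ps differed by 0.54 (SE 0.10, limma adjusted p = 0.0138), and the other 5 by 0.35 to 0.48 with limma adjusted p-values of 0.0308 to 0.0467. Leaving out any 1 of the 8 libraries left 2 to 5 nuclear members called, with 2 left without circRNA replicate 1 or 3 or PKR KO replicate 1 or 2.

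Of the mitochondrial messages mt-Nd3 was higher with circRNA by 0.86 (SE 0.23, limma adjusted p = 0.0455). The call was lost without circRNA replicate 1, 3 or 4 or without any PKR KO library, and passed in 6 of 20 alternatives. All 13 changes were above 0, from 0.36 to 0.86 with a median of 0.53, against 0.18 over nuclear members and 0.08 over all genes. The marker sum of oligodendrocytes was 225 to 576 FPKM with circRNA and 163 to 263 FPKM in PKR KO. With it as a covariate the mitochondrial median was 0.20, 1 of 13 messages passed, and 20 nuclear members were higher with circRNA. With arrayWeights 13 of 13 mitochondrial messages and 27 nuclear members were higher and 1 nuclear member lower.

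**Figure D5:**
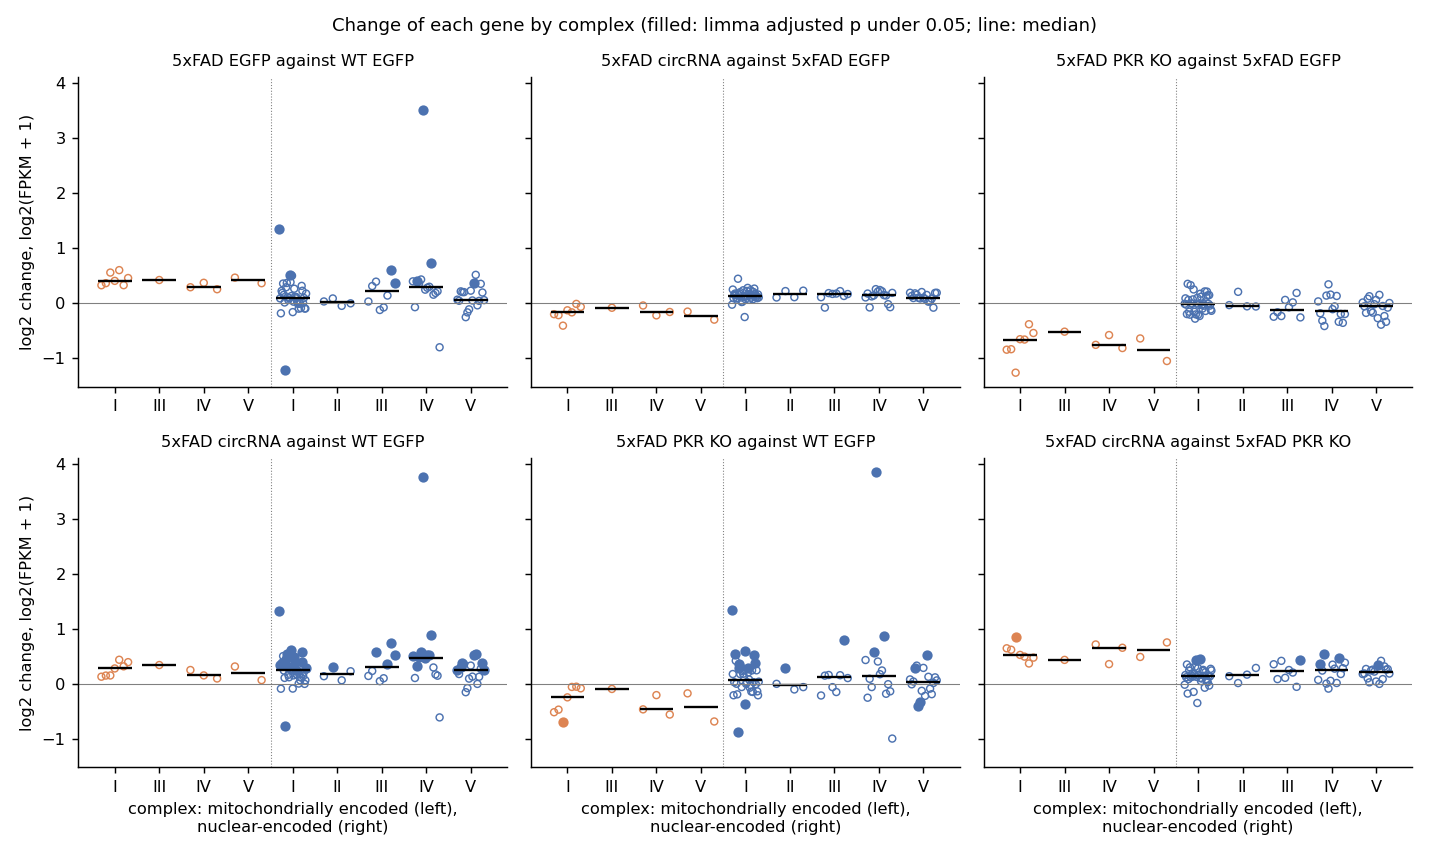
Log2 change on the log2(FPKM + 1) scale of each mitochondrially encoded (orange) and nuclear-encoded (blue) gene by complex, 1 panel for each of the 6 comparisons; filled points have a limma adjusted p under 0.05 and lines are medians. In PKR KO against 5xFAD EGFP all 13 mitochondrial points lie below 0 with none filled, and filled nuclear points are most frequent in circRNA against wild type (36 of 80).

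Genes that build or regulate the chain were read from lists, whose counts stand beside the shares of all genes called: 7.65% higher and 6.35% lower in 5xFAD EGFP, 17.8% and 8.05% with circRNA, and 17.5% and 19.4% in PKR KO, each against wild type. Of 19 tested assembly factors of complex IV, Coa5 rose in 5xFAD EGFP against wild type (log2 change 0.53, limma adjusted p = 0.00701), with circRNA (0.72, limma adjusted p = 0.000114) and in PKR KO (0.42, limma adjusted p = 0.00420). In 5xFAD EGFP it was the 1 of 19 that passed. Of 13 complex I assembly factors 0 rose and 1, Ndufaf5, fell in 5xFAD EGFP (log2 change -0.26, limma adjusted p = 0.0429). In PKR KO against wild type 4 of these 13 fell, Tmem186 most (-0.34, limma adjusted p = 0.00757), and 3 of 19 complex IV factors fell, where 19.4% of all genes did, among them Cox10 and Cox11, which act in heme A synthesis and copper delivery (-0.26 and -0.27). Among 5 complex III factors Uqcc3 rose with circRNA (0.53) and in PKR KO (0.46), with limma adjusted p-values of 0.00532 and 0.00918, and Ttc19 fell in PKR KO (-0.28, limma adjusted p = 0.0264). None of 4 complex V factors passed against wild type in 5xFAD EGFP or with circRNA, and Tmem70 fell in PKR KO (-0.38, limma adjusted p = 0.0287).

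Atpif1, the inhibitor of the ATP synthase and no member by symbol, was at 10.6 ± 1.03 FPKM (SD, n = 3) in wild type and 14.7 ± 1.296 FPKM (SD, n = 2) in 5xFAD EGFP. It rose by 0.43, 0.45 and 0.44 in 5xFAD EGFP, circRNA and PKR KO against wild type, with limma adjusted p-values of 0.0279, 0.00540 and 0.00462. Of 22 genes of mitochondrial transcription and RNA processing 0 passed in 5xFAD EGFP against wild type, 2 rose with circRNA (17.8% of all genes did), and 1 rose and 4 fell in PKR KO (17.5% and 19.4% of all genes did). Hsd17b10, a subunit of the mitochondrial RNase P, rose with circRNA (0.55, limma adjusted p = 0.00173) and in PKR KO (0.34, limma adjusted p = 0.0206), and Mtpap, the mitochondrial poly(A) polymerase, fell in PKR KO (-0.30, limma adjusted p = 0.00911). Slirp, which stabilises mitochondrial messages, was higher with circRNA than in PKR KO (0.41, limma adjusted p = 0.0227), at low means of 1.82 and 1.12 FPKM. In that comparison 2 of the 22 were higher and 0 lower, where 4.28% and 1.91% of all genes were. Of 10 genes of mitochondrial DNA maintenance 1 rose and 1 fell in PKR KO against wild type. Primpol fell (-0.30, limma adjusted p = 0.0463), and Polg2, the accessory subunit of the mitochondrial polymerase, rose in PKR KO to 3.82 ± 0.56 FPKM (SD, n = 4) from 1.86 ± 0.10 FPKM (SD, n = 3) in wild type (0.75, limma adjusted p = 0.000233). It was at 2.17 ± 0.29 FPKM (SD, n = 4) with circRNA, lower than in PKR KO (-0.60, limma adjusted p = 0.00826), the 1 of these 10 called there.

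Among 9 tested nuclear regulators of respiratory genes 0 passed in 5xFAD EGFP against wild type. Nfe2l2, the regulator of the oxidative stress response, rose with circRNA (0.62, limma adjusted p = 0.00562) and in PKR KO (0.81, limma adjusted p = 0.000784), and Pprc1 and Ppargc1b, relatives of PGC-1alpha, rose in PKR KO (0.34 and 0.25), where 1 other of the 9 fell. Of 17 genes of the citric acid cycle, which feeds the chain with electrons, Idh2 fell in each 5xFAD group. It was at 23.3 ± 1.21 FPKM (SD, n = 3) in wild type and 14.5 ± 1.39 FPKM (SD, n = 2) in 5xFAD EGFP (-0.65, limma adjusted p = 0.00627), and it was lower by 0.55 with circRNA and by 0.83 in PKR KO. With circRNA 3 of the 17 rose, among them Suclg2 (0.37, limma adjusted p = 0.00420) and Mdh2 (0.29, limma adjusted p = 0.0415). In PKR KO 4 of the 17 fell, where 19.4% of all genes did, also Pdha1 (-0.42, limma adjusted p = 0.00534) and Idh3a (-0.40, limma adjusted p = 0.00408). Between circRNA and PKR KO, 4 of the 17 were higher with circRNA and 0 lower, where 4.28% and 1.91% of all genes were.

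Ribosomal protein genes gave a scale for the size of the nuclear changes. Of 75 mitochondrial ribosomal proteins 1, Mrpl30, rose and 0 fell in 5xFAD EGFP against wild type, with a median log2 change of 0.02. Of 97 cytosolic ribosomal proteins 69 rose and 1 fell, with a median of 0.73. With circRNA 11 of 75 mitochondrial ribosomal proteins rose and in PKR KO 7 rose and 5 fell, against 84 and 82 of the cytosolic ones that rose. Of all genes 17.8% rose with circRNA, and 17.5% rose and 19.4% fell in PKR KO. The nuclear respiratory members, with a median of 0.13 in 5xFAD EGFP against wild type, lay nearer to the mitochondrial than to the cytosolic ribosomal proteins. No test of that difference was run.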

How the data were processed

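The authors deposited 1 table of FPKM values for 19737 genes in 13 libraries, 1 column each. The submitters' processing notes name mm10, Bowtie2 2.3.5, HISAT2 2.1.0 and featureCounts 1.5.1 without their roles; per the labels' protocols ribosomal RNA was depleted and the rest sequenced from stranded total RNA libraries. Annotation and strand setting are not given in the sources used here. FPKM is divided by a library's total, so a large group of genes that changes moves all others. Depth was recovered from the steps of low FPKM values with GENCODE M21 exon lengths (19671 genes matched); 90.4% to 92.6% of low values were whole fragments within 0.02. No column belonged to another series (0).

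limma 3.58.1 in R 4.3.3 was fitted to log2(FPKM + 1), pseudocount 1, for the 10817 genes whose mean reached 1 FPKM: 1 model with 4 group means (9 residual degrees of freedom), eBayes with trend, Benjamini-Hochberg adjustment in each of 6 comparisons. The fit was tested on simulated data. Replicate numbers did not pair libraries. Members and lists were chosen with earlier results of these data known. Named were all mitochondrial genes, isoform families, the most changed called nuclear genes of each complex, the highest and lowest of each complex, and up to 3 called genes of each list in each comparison. Alternatives, among them the oligodendrocyte marker covariate chosen after seeing the data, changed pseudocount, filter, scaling, libraries, weights, block and gene length trend. Sequences are from RefSeq (GRCm38.p6). Some items that the naming rule covers are not reported here.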

Additional observations from a re-analysis of the deposited data

Results flagged for a closer look

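In groups of 4 libraries, 88 tests asked whether the highest or lowest library stood apart by Dixon's criterion; chance flags about 1 in 20 groups, and the genes share libraries. PKR KO replicate 4 was the high library of its group in summed mitochondrially encoded FPKM (16545 FPKM). The same library stood high for mt-Co1 (2733.1 FPKM), mt-Atp6 (3023.5 FPKM), mt-Cytb (1436.6 FPKM), mt-Atp8 (937.19 FPKM), mt-Nd4 (1205.0 FPKM), mt-Nd1 (881.11 FPKM), mt-Nd5 (1058.1 FPKM) and mt-Nd4l (959.24 FPKM). It stood low for Ndufa1 (13.893 FPKM) and Ndufb1-ps (0.98992 FPKM). PKR KO replicate 1 stood high in the nuclear sum (1213.8 FPKM), Cox4i1 (97.898 FPKM) and Cox6a1 (115.7 FPKM). circRNA replicate 3 stood high for Cox4i1 (108.67 FPKM) and Sdhb (16.692 FPKM).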

How the results depend on the processing

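Small groups, with 2 libraries in 5xFAD EGFP, and the scaling inherent in FPKM limit these results. Counts are of members called by limma, given as higher and lower where both occur.

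For 5xFAD EGFP against wild type, arrayWeights gave 1 mitochondrial and 15 nuclear calls (13 and 2), the 2 groups alone 3 nuclear calls (2 and 1), and leaving out 1 library 0 to 1 and 3 to 12. The mitochondrial median was -0.0454 after quantile normalization, and the nuclear median -0.0275 and -0.0087 after rescaling to the same sum with and without mt- genes. For PKR KO against 5xFAD EGFP, the 2 groups alone gave 4 mitochondrial calls and 1 nuclear call and arrayWeights 6 and 3, all lower, and leaving out 1 library 0 of either. The mitochondrial median was -0.13 with the oligodendrocyte covariate, added after seeing the data. For circRNA against 5xFAD EGFP no alternative gave a call among the members.

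For circRNA against wild type, arrayWeights and the covariate each gave 3 mitochondrial calls, all higher. Nuclear calls were 22 (10 and 12) after rescaling to the same sum, 24 (10 and 14) without mt- genes in the sum, 18 (17 and 1) with the 2 groups alone and 21 (17 and 4) with the gene length trend removed. Leaving out 1 library gave 0 to 1 mitochondrial and 20 to 37 nuclear calls. The mitochondrial median was -0.23 after quantile normalization, and the nuclear median -0.0035 and -0.0123 after rescaling with and without mt- genes.

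For PKR KO against wild type, mitochondrial calls were 0 with no filter, median-ratio scaling, arrayWeights or the covariate. They were 7 after quantile normalization, 4 and 5 after rescaling with and without mt- genes and 2 with the length trend removed, all lower. Nuclear calls were 38 (8 and 30) and 43 (8 and 35) after these rescalings and 32 (29 and 3) with median-ratio scaling. Leaving out 1 library gave 0 to 3 mitochondrial and 12 to 20 nuclear calls, 12 without PKR KO replicate 2. The nuclear median was -0.15 and -0.20 after rescaling, and the mitochondrial median 0.26 with the covariate.

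For circRNA against PKR KO, mitochondrial calls were 0 with no filter, quantile normalization, both rescalings, median-ratio scaling or the length trend removed, and 13 with arrayWeights. Nuclear calls were 2 with no filter, 4 after quantile normalization, 18 (17 and 1) after rescaling without mt- genes, 4 (3 and 1) with median-ratio scaling, 11 with the 2 groups alone, 28 (27 and 1) with arrayWeights, 4 (2 and 2) with the length trend removed and 20 with the covariate. Leaving out 1 library gave 0 to 1 and 2 to 5.

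Replicate numbers did not pair libraries, with correlations of same-numbered deviations from -0.42 to 0.69. The replicate block gave 2 mitochondrial calls in PKR KO against wild type, both lower, and moved no other count by over 1.5 times. With the block and the length trend removed, PKR KO against wild type had 5 mitochondrial calls, circRNA against wild type 16 nuclear calls (12 and 4) and a mitochondrial median of -0.27, and circRNA against PKR KO 0 mitochondrial and 4 nuclear calls (3 and 1).

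With medians in place of sums the log2 mitochondrial to nuclear ratio was 7.002, 7.07, 6.73 and 6.42 in wild type, 5xFAD EGFP, circRNA and PKR KO, and without the highest member of each genome 3.95 in 5xFAD EGFP. Cox6a2 turned to -0.0346 in circRNA against 5xFAD EGFP with arrayWeights and to -0.0348 in PKR KO against 5xFAD EGFP with the covariate, and mt-Nd5 to 0.0635 in the latter. Of named genes under alternatives, 1230 values kept direction and side of the threshold, 209 lost and 49 gained a call. Where no construction shows it, the cause was not tested.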
